A study of Homo sapiens with 6 samples.

Results

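The ID proteins, the E proteins and TWIST were followed in RH36 cells through 9 genes, ID1, ID2, ID3, ID4, TCF3, TCF4, TCF12, TWIST1 and TWIST2. Of the 30484 gene names in the array files these 9 were taken, with every probe that carries one of them, which gave 14 of the 41000 probes, 5 for ID genes, 6 for E protein genes and 3 for TWIST genes. A probe is a 60-base oligonucleotide, and 13 of the 14 passed the filter on spots that were found on the arrays, which 36469 of all probes passed.

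The helix-loop-helix proteins bind DNA as pairs through a basic region, at a short motif called the E-box. E proteins (TCF3, TCF4 and TCF12, also called E2A, E2-2 and HEB) are made in most tissues and pair with tissue-restricted partners such as MYOD1 and MYOG in muscle. ID proteins lack the basic region and hold E proteins in pairs that do not bind DNA, while TWIST1 and TWIST2 compete for E proteins and are known to restrain MYOD1, so ID and TWIST proteins are studied as brakes on myogenic differentiation.

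RH36 is an established embryonal rhabdomyosarcoma cell line, a tumour of the skeletal muscle lineage, that lacks the PAX3/FOXO1 translocation. Cultures of 3 biological replicates received pre-miR-27a, a synthetic precursor of the microRNA miR-27a, and 3 a negative pre-control, and total RNA was hybridised in 1 colour (Cy3) to 6 whole-genome arrays. By the labels the precursor was used at 10 nM and the cells given it were taken at 48 hours, but the paper names another concentration and an earlier time, and which of these held was not settled. The comparison asked which transcripts differ when a line that holds little miR-27a of its own is given more of it.

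The groups lay on separate slides, 3 arrays on each, and an effect of the slide therefore cannot be told apart from one of the transfection in any value below. The share of spots well above background was 69.9% to 73.9% with pre-control and 74.1% to 78.0% with pre-miR-27a, and no spot was saturated. After normalization, the 8 spike-in probes of 14 that were well above background on every array, for RNA added to each sample, all had a higher mean signal in the pre-miR-27a group, with differences between 0.05 and 0.42 on the log2 scale and a median of 0.28. The other 6, near background, differed by −0.25 to 0.72. Of 9 muscle lineage markers, 8 were well above background on all 6 arrays and the exception was MYF5. None of 4 epithelial markers was above background on all 6 arrays, and 1 of 3 blood (CD3E), 1 of 3 endothelial (VWF) and 1 of 3 neural (GFAP) markers were. The number of arrays limits the precision of each value, and because cells were lysed in bulk, fewer cells making a transcript and less transcript per cell cannot be told apart.

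The mature microRNA carries the bases that pair with a target, and its sequence is shown because 1 of the 9 genes, ID4, is in the study's own table of predicted miR-27a targets. The seed, bases 2 to 8, is in capitals, and miR-27b is given beside it because it shares that seed and differs at 1 base near the 3′ end (RefSeq, GRCh38.p14; miR-27a at chr19:13836447-13836467, minus strand, and miR-27b at chr9:95085505-95085525, plus strand).
hsa-miR-27a-3p: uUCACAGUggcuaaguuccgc
hsa-miR-27b-3p: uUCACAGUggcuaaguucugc
Within the microRNA table, 3 mature human sequences hold this seed, the other being hsa-miR-9985.

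Of the 13 member probes tested, 1 passed an adjusted p of 0.05 (limma, Benjamini-Hochberg over all 36469 probes), against 7.83% of all probes (3.95% higher and 3.88% lower). It was a probe for the E protein TCF12, which rose 1.5-fold in pre-miR-27a cells. By the brightest probe of each gene (the highest mean signal among its tested probes), 0 of 9 genes passed, against 6.65% of all genes. At an unadjusted p under 0.05 there was 1 (TWIST2), against 22.9% of all genes. By sign, 5 genes were lower and 4 higher, with a median log2 fold change of −0.17, where the median over all genes was −0.04. The replicate numbers of the 2 groups were taken to pair the arrays. With the number as a block 4 probes passed: TCF12 again and TCF4 higher, and ID4 and TWIST1 lower, against 14.9% of all probes (7.24% higher and 7.62% lower). The count of 1 in 13 is near its background, and the count of 4 with the block is above its background by few probes. Beside the count of 0 genes stand 3 of 9 with the block (ID4, TCF4 and TWIST1), against 13.5% of all genes.

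**Figure D1:**
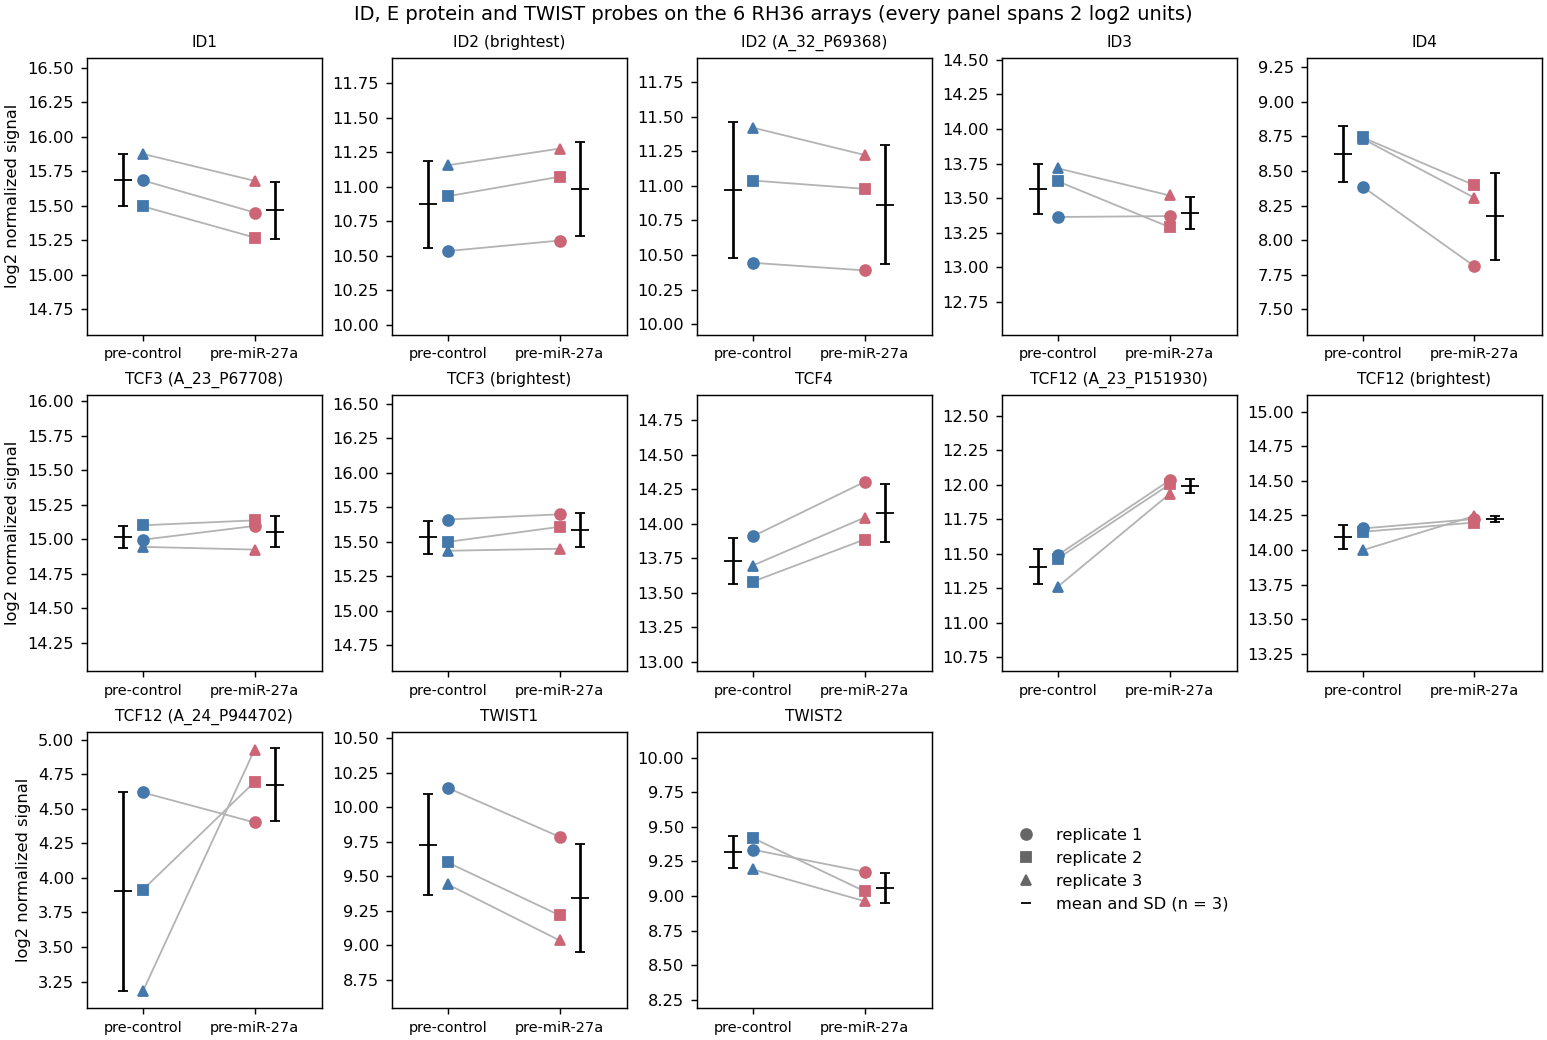
Quantile-normalized log2 signal (y axis, each panel spanning 2 log2 units with its own origin) of the 13 tested member probes in pre-control (blue) and pre-miR-27a (red) arrays, with grey lines joining arrays of the same replicate number and black bars giving the mean and SD (n = 3). The lines of TCF12 (A_23_P151930) climb with no overlap between groups, and those of ID4, TWIST1 and TCF4 run nearly in parallel across replicates that differ in level.

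ID1, an antagonist of E proteins and a target gene of BMP signalling, was measured by 1 probe (A_23_P252306, NM_002165, hg18 chr20:29657819-29657878). Its log2 signal was 15.68, 15.50 and 15.88 on pre-control arrays 1, 2 and 3, and 15.45, 15.27 and 15.68 on the pre-miR-27a arrays in the same order. Each pre-miR-27a array was below the pre-control array of its number, by 0.23, 0.23 and 0.20, but the groups overlapped because the replicates differed in level by more than that. The log2 fold change was −0.22 (SE 0.15, limma adjusted p = 0.438), with a 95% confidence interval from −0.59 to 0.16, and it was −0.39 under 75th percentile scaling (adjusted p = 0.106). With the replicate block its SE was 0.05 and its adjusted p 0.0724, still short of the threshold.

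ID2, which is known to bind E proteins in many differentiating tissues, had 2 probes that differed in sign. The brightest (A_23_P143143, NM_002166, hg18 chr2:8740093-8740481) read 10.53, 10.93 and 11.16 on pre-control and 10.61, 11.07 and 11.28 with pre-miR-27a. Its log2 fold change was 0.11 (SE 0.23, limma adjusted p = 0.817). The second probe (A_32_P69368, hg18 chr2:8741733-8741792), which starts 1640 bases further along, read 10.44, 11.04 and 11.42 on pre-control and 10.39, 10.98 and 11.22 with pre-miR-27a. Its log2 fold change was −0.10 (SE 0.32, limma adjusted p = 0.884). In both groups and at both probes replicate 1 was lowest and replicate 3 highest, and this spread between replicates was several times the distance between groups. The difference between the changes at the 2 probes was 0.22 log2 units, and the groups of per-array differences overlapped (exact permutation p = 0.2, two-sided, where 3 against 3 arrays cannot go below 0.1).

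ID3, the family member most like ID1 in its response to BMP, was measured by A_23_P137381 (NM_002167, hg18 chr1:23758253-23758312). Its log2 signal was 13.36, 13.62 and 13.72 on pre-control arrays and 13.37, 13.29 and 13.52 with pre-miR-27a. Replicates 2 and 3 were lower in pre-miR-27a cells and replicate 1 was level, with overlap between the groups. The log2 fold change was −0.17 (SE 0.12, limma adjusted p = 0.453).

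ID4, another antagonist of E proteins, was measured by 1 probe. This probe (A_23_P59375, NM_001546, hg18 chr6:19947489-19947548) read 8.39, 8.74 and 8.73 on pre-control arrays and 7.81, 8.40 and 8.31 on pre-miR-27a arrays. The pre-miR-27a array was lower in every same-numbered pair, by 0.58, 0.35 and 0.43, although pre-miR-27a replicate 2 lay just above pre-control replicate 1. Without the block the log2 fold change of −0.45 (SE 0.19, 95% confidence interval −0.93 to 0.03) did not pass (limma adjusted p = 0.225). With the replicate block the same difference had an SE of 0.07 and an interval of −0.66 to −0.24, and it passed (limma adjusted p = 0.0427). Since the study's table of predicted targets was drawn up from these arrays, the presence of ID4 in it is no independent evidence of the direction.

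The genes whose log2 signal followed that of ID4 most closely over the 6 arrays, among 25719 probes well above background throughout, were CD63 (Pearson r = 0.993), GLRX (r = 0.993) and ZBTB18 (r = 0.991). These correlations are a description over 6 arrays that share 2 slides and a pairing. CD63, a tetraspanin of late endosomes, had a log2 fold change of −0.08 (limma adjusted p = 0.580), GLRX, a glutaredoxin, −0.50 (adjusted p = 0.164) and ZBTB18, a zinc finger repressor, −0.60 (adjusted p = 0.243).

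Among the E proteins, TCF3 (E2A) is a known partner of MYOD1. Its brightest probe (A_24_P365365, NM_003200, hg18 chr19:1560332-1560391) read 15.66, 15.50 and 15.43 on pre-control and 15.70, 15.61 and 15.45 on pre-miR-27a arrays. The groups overlapped almost fully. Its log2 fold change was 0.05 (SE 0.11, limma adjusted p = 0.806) and that of its other probe (A_23_P67708) 0.04 (SE 0.09, adjusted p = 0.846), and both turned negative, −0.10 and −0.11, when arrays were scaled to their 75th percentile instead. The 95% confidence interval of the brightest probe ran from −0.21 to 0.32, so a change of that size in either direction is not excluded by these arrays.

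TCF4 (E2-2; not the WNT effector TCF7L2, which is at times given the same name) was measured by A_23_P27332 (NM_003199, hg18 chr18:51046235-51046484). Its log2 signal was 13.91, 13.58 and 13.70 on pre-control arrays and 14.30, 13.89 and 14.04 on pre-miR-27a arrays. Every same-numbered pair was higher with pre-miR-27a, by 0.39, 0.31 and 0.35, and the groups overlapped only where pre-control replicate 1 lay above pre-miR-27a replicate 2. The log2 fold change of 0.35 (SE 0.15, limma adjusted p = 0.215) passed with the replicate block (SE 0.05, adjusted p = 0.0418).

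TCF12 (HEB), an E protein that pairs with MYOD1 during muscle differentiation, had 3 probes spread over 214556 bases. The probe that passed (A_23_P151930, NM_207038, hg18 chr15:55352693-55352752) read 11.49, 11.46 and 11.26 on pre-control arrays and 12.03, 12.00 and 11.93 on pre-miR-27a arrays. All 3 pre-miR-27a arrays were above all 3 pre-control arrays, with group means of 11.41 ± 0.13 and 11.99 ± 0.05 (SD, n = 3). Its log2 fold change was 0.58 (SE 0.09, limma adjusted p = 0.0270), and the exact permutation p was 0.1, the smallest that 3 against 3 allows. It passed in 11 of 11 limma settings that kept all 6 arrays, with adjusted p from 0.000948 to 0.0351. It was not called by SAM, a permutation-based test run here without the pairing, at a false discovery rate of 5%. In the 6 fits that left out 1 array its log2 fold change stayed between 0.51 and 0.62 (limma adjusted p from 0.0557 to 0.10). It passed in none of these, but only the fit without pre-control replicate 1 called any probe of the array (1195). Failing the others therefore sets no limit particular to this probe.

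The brightest TCF12 probe (A_24_P82142, hg18 chr15:55367246-55367305) starts 14553 bases from the one that passed. It read 14.16, 14.13 and 14.00 on pre-control arrays and 14.22, 14.20 and 14.25 on pre-miR-27a arrays. These groups did not overlap either, but the log2 fold change was 0.13 (SE 0.08, limma adjusted p = 0.383). It was 0.02 under 75th percentile scaling, and the mean of all TCF12 probes gave 0.49 (adjusted p = 0.159). The changes at the 2 probes differed by 0.45 log2 units, with no overlap between the per-array differences of the groups (exact permutation p = 0.1, two-sided, the smallest possible here).

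The remaining TCF12 probe (A_24_P944702), designed on the cDNA AK022018 (hg18 chr15:55152690-55152749), was well above background on all 3 pre-miR-27a arrays and on none of the pre-control arrays. Its log2 signal was 4.62, 3.91 and 3.18 on pre-control and 4.40, 4.70 and 4.93 on pre-miR-27a arrays, at least 1.01-fold higher on the pre-miR-27a arrays, which sets almost no lower limit. The measured log2 fold change was 0.77 (SE 0.38, limma adjusted p = 0.278) and 0.07 after normexp background correction. The pre-control slide also had the higher local background, a median of 74.5 to 76 units against 52.5 to 53, and the part of this in the dim probe's values was not tested.

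**Figure D2:**
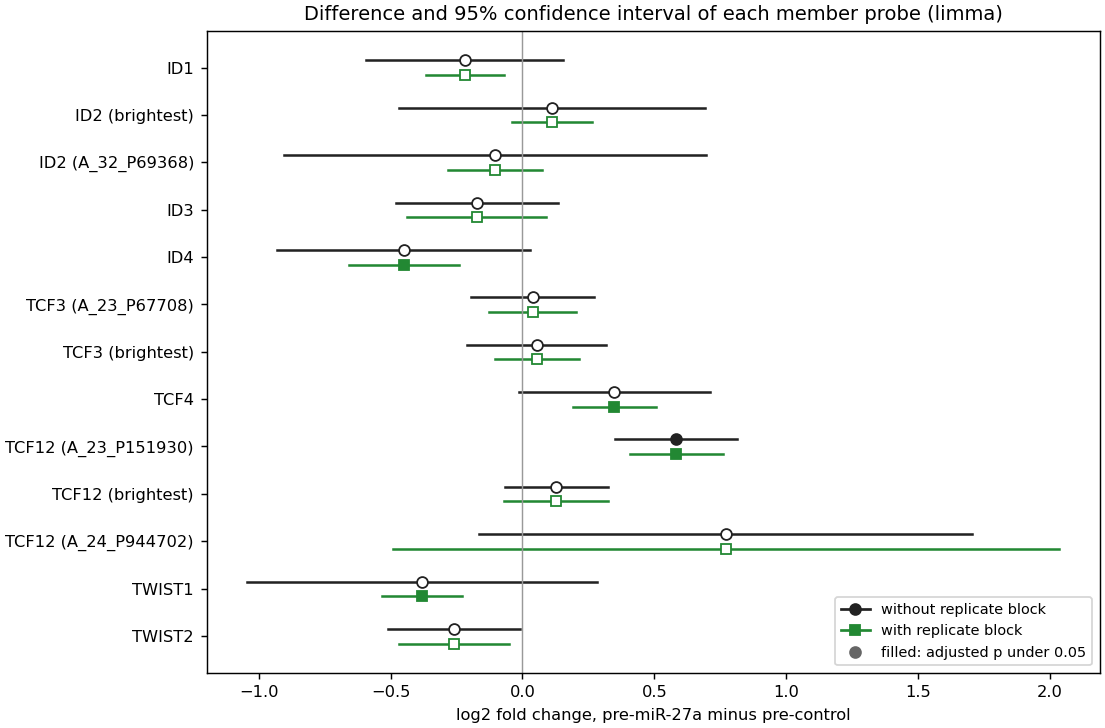
Log2 fold change, pre-miR-27a minus pre-control (x axis), and its 95% confidence interval for the 13 tested member probes from limma without (black circles) and with (green squares) the replicate block, filled where the adjusted p is under 0.05. The intervals of ID4, TCF4 and TWIST1 cross 0 without the block and do not with it, while the point estimates are the same.

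TWIST1, a regulator of mesenchyme that is known to bind E proteins and to hold back MYOD1, had 2 probes. The tested one (A_23_P71067, NM_000474, hg18 chr7:19122025-19122084) read 10.14, 9.60 and 9.44 on pre-control arrays and 9.78, 9.22 and 9.04 on pre-miR-27a arrays. The same-numbered pairs differed by −0.35, −0.38 and −0.41, all lower with pre-miR-27a, while replicate 1 stood above the other replicates in both groups and made them overlap. Its log2 fold change was −0.38, with an SE of 0.27 and an adjusted p of 0.445 in limma without the block and 0.05 and 0.0371 with it. The other probe (A_23_P71073), whose start lies 145 bases away, was found on 1 of 3 pre-control arrays and did not pass the filter. It was nevertheless well above background on all 3 arrays of each group, and a filter on that flag kept it. With no filter its log2 signals were 6.53, 5.42 and 5.39 on pre-control and 6.38, 5.87 and 5.65 on pre-miR-27a arrays. Its log2 fold change then had the opposite sign, 0.19 (SE 0.37, limma adjusted p = 0.805). The fits without pre-control replicate 1 or replicate 3 again left out spots not found. Both gave 0.55 and rested on the same single pre-control array, replicate 2, so they are not separate results.

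TWIST2 (Dermo-1), its close relative, was measured by A_23_P21324 (NM_057179, hg18 chr2:239496981-239497039). The log2 signal was 9.34, 9.42 and 9.19 on pre-control arrays and 9.18, 9.03 and 8.96 on pre-miR-27a arrays. All 3 pre-miR-27a arrays were below all 3 pre-control arrays, by a narrow margin. The log2 fold change was −0.26 (SE 0.10, limma adjusted p = 0.191, and 0.0933 with the block; exact permutation p = 0.1, the smallest possible).

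Counted over the members, the groups of arrays did not overlap at 3 probes (2 for TCF12 and 1 for TWIST2), where 32.7% of all probes with 6 values had none (15.2% higher and 17.5% lower). The 3 same-numbered pairs shared a sign at 10 of the 13 probes, where 63.0% of all such probes did. By brightest probe, 3 of 4 ID genes and both TWIST genes had a negative log2 fold change and the 3 E protein genes a positive one. Of all tested probes 46.4% were higher. None of these genes passed without the block. The other probes of ID2 and of TWIST1, the latter outside the filter, had the opposite sign to the brightest. TCF3 turned negative under 75th percentile scaling. That scaling moved the median log2 fold change of all probes from −0.02 to −0.09, and of the probes called it made 39.2% higher (1275 higher, 1981 lower) in place of 50.4% (1440 higher, 1416 lower).

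**Figure D3:**
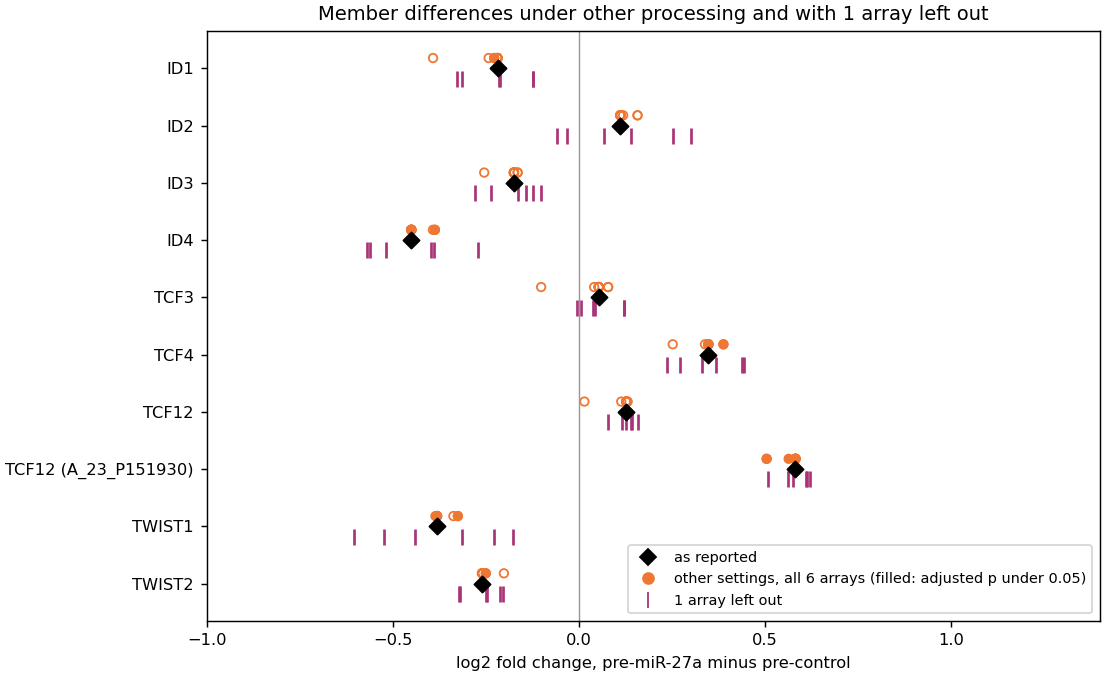
Log2 fold change, pre-miR-27a minus pre-control (x axis), of each member by its brightest probe and of the TCF12 probe that passed, as reported (black diamonds), under the other settings with all 6 arrays (orange circles, filled where the adjusted p is under 0.05) and with 1 array left out (purple ticks). The mean of all probes of a gene is not drawn. The TCF12 probe A_23_P151930 stays between 0.51 and 0.62 whichever array is left out, and ID2 and TCF3 lie on both sides of 0.

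The motif that E proteins and TWIST bind, and from which ID proteins hold E proteins back, is shown in the starts of the member genes. It is the E-box, CANNTG, which was searched on both strands and, being its own reverse complement in form, is found on both at once. Of 21 RefSeq start sites of 8 members (250 bases before to 50 after the start, GRCh38.p14), 11 held CANNTG, in ID2, ID4, TCF4 and TCF12, against 68.7% of all 35116 start-site windows. Its form CAGCTG was in 2 of the 21, once in ID2 (205 bases before the start) and once in ID4 (21 bases before), against 17.9% of all. The 12 bases on either side are given for these 2 and, for comparison, for CACGTG and CATGTG before 2 start sites of TCF12, 183 and 18 bases upstream, all on the plus strand and with the motif in capitals.
ID2, chr2:8681839-8681868: tatttaccacccCAGCTGggctcgcgcccc
ID4, chr6:19837337-19837366: gctctataaataCAGCTGcgcggcgggccg
TCF12, chr15:56917895-56917924: aagaactagtccCACGTGcagttcggttgc
TCF12, chr15:57219400-57219429: tttgagtagatcCATGTGtgaatgcatagt
A match of letters is a description of these windows and not a bound site.

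The tissue-restricted partners of E proteins were taken as a list of 25 genes, of which 18 were tested. None was called higher, 2 were called lower (TCF23 and MESP1) and 16 were not called, where 2.61% of all genes were called higher and 4.04% lower, and the list median was −0.11. TCF23, which is known as an inhibitor of E protein binding, read 6.06, 6.42 and 6.04 on pre-control and 4.89, 5.39 and 4.78 on pre-miR-27a arrays, a log2 fold change of −1.15 (SE 0.20, limma adjusted p = 0.0317), which was −0.50 after normexp background correction (adjusted p = 0.0208). MESP1, a factor of early mesoderm, read 10.29, 10.27 and 10.31 against 9.94, 9.94 and 9.94, a log2 fold change of −0.35 (SE 0.07, limma adjusted p = 0.0393). Both fell with no overlap between groups. Neither passed with any 1 array left out, where only the fit without pre-control replicate 1 called any probe of the array.

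MYOD1, the muscle determination factor, was lower in each same-numbered pair. Its log2 signal was 12.19, 12.42 and 12.53 on pre-control arrays and 11.82, 11.97 and 12.01 on pre-miR-27a arrays. All pre-miR-27a arrays lay below all pre-control arrays, and the log2 fold change of −0.45 (SE 0.12, limma adjusted p = 0.0787) passed with the replicate block (adjusted p = 0.0363). MYOG, which acts later in muscle differentiation, read 9.72, 10.40 and 10.69 against 8.87, 9.42 and 9.67. Its groups were apart too, and its log2 fold change of −0.95 (SE 0.32, limma adjusted p = 0.140) passed with the block (adjusted p = 0.0334), as did that of its other probe, −0.96. MYF6 varied far more between replicates than between groups, with 9.57, 7.76 and 10.99 against 9.47, 7.40 and 11.02 and a log2 fold change of −0.14 (SE 1.18, limma adjusted p = 0.959). MYF5 stayed below the level counted as well above background on the 6 arrays and was not tested.

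MSC (musculin), a repressor of MYOD1 activity, differed in the other direction. Its log2 signal was 12.15, 12.23 and 12.01 on pre-control and 12.57, 12.60 and 12.44 on pre-miR-27a arrays. The groups did not overlap, and the log2 fold change of 0.41 (SE 0.10, limma adjusted p = 0.0641) passed with the block (adjusted p = 0.0363). With the block 7 of the 18 genes of this list passed, 1 higher (MSC) and 6 lower, MYOD1, MYOG, TCF23 and MESP1 among them, where 5.46% of all genes passed as higher and 8.05% as lower.

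Upstream of the ID genes, a list of 26 BMP and SMAD genes had 25 tested, with a median of −0.05. Among these, 2 were called higher, none lower and 23 were not called, where 2.61% of all genes were called higher and 4.04% lower. BMPR2, the type II BMP receptor, read 9.31, 9.42 and 9.75 on pre-control and 10.07, 10.21 and 10.39 on pre-miR-27a arrays, a log2 fold change of 0.73 (SE 0.15, limma adjusted p = 0.0470), and its second probe gave 1.00 (adjusted p = 0.0176). SMAD5, which carries the BMP signal to the nucleus, read 9.49, 9.32 and 9.41 against 10.36, 10.45 and 10.04, a log2 fold change of 0.87 (SE 0.13, limma adjusted p = 0.0244). With 1 array left out, only the fit without pre-control replicate 1 called any probe of the array. Neither gene passed in any of these fits (limma adjusted p from 0.0566 to 0.136). Both rose with no overlap between groups, although by sign 8 genes of the list were higher and 17 lower. No ID gene passed without the block. ID4 had the same log2 fold change, −0.45, with and without the block, and passed only with it. A link between the list and the ID genes was not tested.

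SMAD1, which acts with SMAD5, read 14.23, 14.30 and 14.24 on pre-control and 14.53, 14.56 and 14.48 with pre-miR-27a. The log2 fold change was 0.27 (SE 0.07, limma adjusted p = 0.0820, and 0.0543 with the block), and its other probe gave 0.09 (adjusted p = 0.526). BMP4, a ligand, read 10.57, 9.74 and 10.21 against 10.50, 9.79 and 10.05, with overlap and a log2 fold change of −0.06 (SE 0.28, limma adjusted p = 0.920). With the block 4 genes of the list passed, 3 higher and 1 lower, against 5.46% and 8.05% of all genes.

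Among 14 cofactors and regulators of E proteins, 13 were tested, with a median of −0.08. Of these, 1 was called higher, none lower and 12 were not called, against 2.61% of all genes called higher and 4.04% lower. EP300, a histone acetyltransferase that E proteins and MYOD1 recruit, read 8.20, 8.07 and 8.01 on pre-control and 8.78, 8.97 and 8.64 on pre-miR-27a arrays. All pre-miR-27a arrays were above the pre-control arrays, with a log2 fold change of 0.70 (SE 0.11, limma adjusted p = 0.0276), and its second probe gave 1.28 (adjusted p = 0.0268). With 1 array left out the brightest probe gave 0.61 to 0.78 and did not pass. Of these fits only the one without pre-control replicate 1 called any probe of the array.

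Of 13 genes of the epithelial-mesenchymal transition, both factors that act with TWIST and markers, 12 were tested, with a median of 0.03. Among these, 1 was called higher, none lower and 11 were not called, beside the same shares of all genes, 2.61% higher and 4.04% lower. ZEB1, a zinc finger repressor, read 7.41, 6.75 and 7.37 on pre-control and 8.61, 8.42 and 8.43 on pre-miR-27a arrays, a log2 fold change of 1.31 (SE 0.20, limma adjusted p = 0.0248). With 1 array left out it gave 1.10 to 1.43 and passed only without pre-control replicate 1, the only such fit that called any probe. TWIST1 had a log2 fold change of −0.38 and was not called without the block (limma adjusted p = 0.445, and 0.0371 with it). Its other probe, outside the filter, gave 0.19. Over the 4 lists the medians lay between −0.11 and 0.03, where the median over all genes was −0.04.

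**Figure D4:**
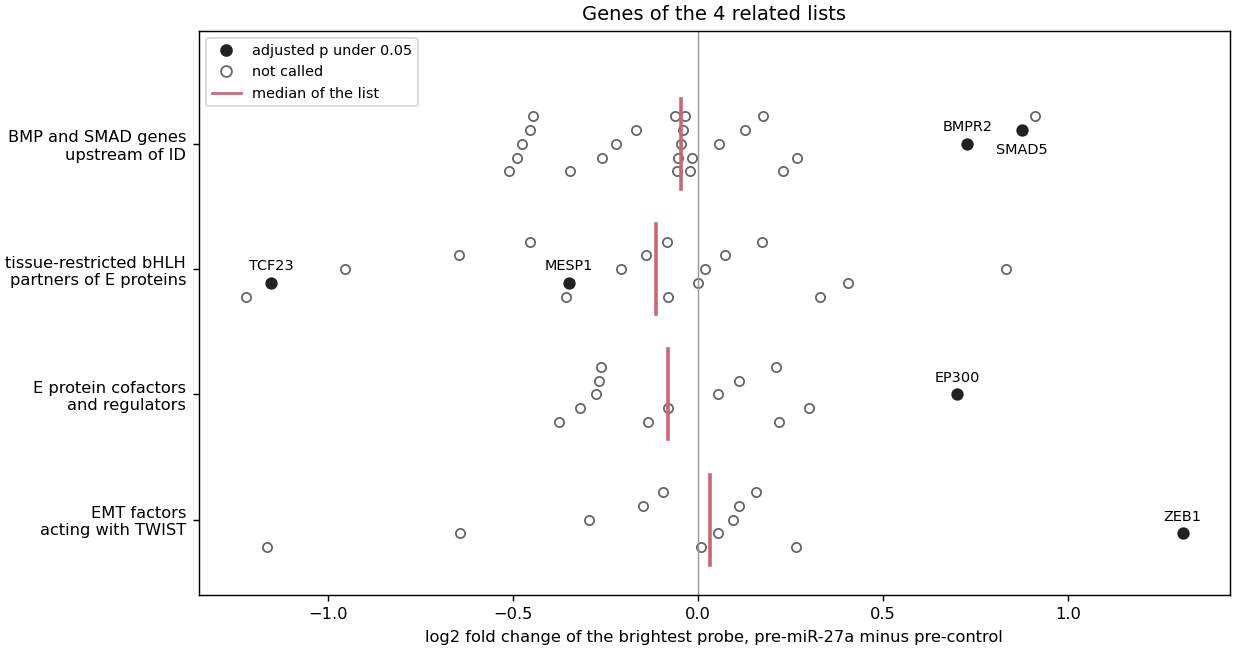
Log2 fold change of the brightest probe, pre-miR-27a minus pre-control (x axis), of each tested gene in the 4 lists, with genes of adjusted p under 0.05 filled and named and the list median as a red line. The 6 called genes are TCF23 and MESP1 on the left of 0 and BMPR2, SMAD5, EP300 and ZEB1 on the right, and the 4 medians lie between −0.11 and 0.03.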

How the data were processed

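The authors deposited 1 scanner file per array, with processed intensity (background-subtracted by Feature Extraction 10.5.1.1, not normalized between arrays) and spot flags, and a table of log2 values, quantile normalized by the authors, used as an alternative. Log2 processed intensity was quantile normalized, spots not found were set to missing, replicate spots were averaged, and a probe was kept where at most 1 array was missing. limma 3.58.1 (R 4.3.3) compared 3 with 3 arrays over 36469 probes. P-values were adjusted by Benjamini-Hochberg, and 0.05 was the threshold. SAM used 20 relabellings of the arrays into 3 and 3, without the pairing. Scripts were tested on simulated data. Figures used matplotlib.

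Deviations from group means correlated at 0.40, 0.46 and 0.41 between same-numbered arrays (31717 probes) and at −0.27 to −0.12 between others. Because deviations within a group cancel out, the negative values follow from the positive ones and are not separate support. The numbers in the labels were taken to pair the arrays, and what the same-numbered arrays share was not tested. The correlations come from the same arrays that the block was then used on. The number of unused per-sample columns was 0. All member probes, list genes that passed, and MYOD1, MYF5, MYOG, MYF6, MSC, SMAD1 and BMP4 are named, with the 3 probes most like ID4, and 1 list gene is not reported here by name. Members and lists were chosen with earlier results of these data known. Symbols and sequences came from RefSeq (GRCh38.p14). Probe positions are hg18, from the files.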

Additional observations from a re-analysis of the deposited data

How the results depend on the processing

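With all 6 arrays, the member values kept their direction under the other settings, apart from both TCF3 probes under 75th percentile scaling (−0.10 and −0.11). Member probes called were 1 without the replicate block and 4 with it, and member genes 0 and 3, with ID4 at −0.45, TCF4 at 0.35 and TWIST1 at −0.38 passing through the pairing. The block raised the list counts to 4 (BMP and SMAD), 7 (partners), 3 (cofactors) and 2 (EMT), and all probes called from 2856 to 5421. Normexp with the replicate block, added after seeing the data, called 6 member probes and 5 genes, ID1 (−0.23), ID4 (−0.39), TCF4 (0.39), TWIST1 (−0.32) and TWIST2 (−0.25), with list counts of 7, 8, 7 and 5 and 11152 of all probes. SAM called 0 member probes at false discovery rates of 1.9% (9 of all probes) and 5% (1329 of all). It was run without the pairing, whereas the paper describes a paired SAM that found many more genes at 1.9%. These counts therefore do not repeat the paper's test.

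Other list counts that differed were 1 partner under 75th percentile scaling, 5 under normexp and 4 under the filter on probes well above background, 1 BMP and SMAD gene without a filter, where BMPR2 missed the threshold, as MESP1 did under 75th percentile scaling, 2 cofactors under the well-above-background filter, and 3 each of cofactors, partners, and BMP and SMAD genes under variance trend and robust estimation. The EMT count was 2 under these except no filter, and also under the authors' log2 values and the positive and significant flag.

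With 1 array left out, 0 member probes were called each time, and of all probes 1195 without pre-control replicate 1 and 0 otherwise. Log2 fold changes ran from −0.33 to −0.12 for ID1, −0.057 to 0.30 for ID2 (negative without pre-control replicate 1 or, at −0.032, pre-miR-27a replicate 3), −0.37 to 0.13 for its second probe (positive without pre-control replicate 3 or pre-miR-27a replicate 1), −0.28 to −0.10 for ID3, −0.57 to −0.27 for ID4, −0.0033 to 0.12 for TCF3, −0.0036 to 0.10 for its second probe, 0.24 to 0.45 for TCF4, 0.08 to 0.16 for the brightest TCF12 probe, 0.41 to 1.13 for the dim one, −0.60 to −0.18 for TWIST1, −0.32 to −0.20 for TWIST2, −1.01 to 0.80 for MYF6 and −0.28 to 0.14 for BMP4. List counts were 0, with 0 to 1 for EMT. The cause of these changes was not tested. Dim probes give only bounds.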
